A study of Mus musculus with 7 samples.

Results

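Keratins are the intermediate filament proteins of epithelial cells, and the mammary epithelium uses different members of the family in its inner and outer layers. Filaments form from an acidic (type I) and a basic (type II) keratin. In the luminal layer Krt8 (type II) and Krt18 (type I) are the core partners, with Krt7 (type II) and Krt19 (type I) beside them. In the basal, myoepithelial layer Krt5 (type II) and Krt14 (type I) are the core partners. Krt15 and Krt17 (type I) mark basal or progenitor-like cells of several epithelia, and Krt17 and Krt6a (type II) are also known as keratins of activated or wounded epithelium. The open chromatin of 9 genes was described here, 4 luminal (Krt7, Krt8, Krt18 and Krt19) and 5 basal (Krt5, Krt14, Krt15, Krt17 and Krt6a).

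Chromatin accessibility was profiled by ATAC-seq, in which a transposase inserts sequencing adapters into open DNA. The tumor cells came from mice of C57BL/6 background that carried the MMTV-PyMT transgene, in which a mammary tumor virus promoter drives the polyoma middle T oncoprotein, and a bacterial artificial chromosome that reports Dll1, a Notch ligand gene, through mCherry. Cells with CD45, CD31 or Ter119 on the surface were removed, and the remaining cells were separated by mCherry into Dll1+ tumor cells, which had it, and Dll1- tumor cells, which did not. The 7 samples comprised 3 Dll1+ and 4 Dll1- samples from 4 tumors, of which 3 gave both, and all carried the transgene and the reporter; the ages of the mice were not given in the sources used here. Sorting by mCherry reports the activity of the reporter and not the Dll1 protein itself.

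Each group was deposited as 1 list of open chromatin regions pooled over its samples, so no value below has a replicate and none was tested. The rows of both lists were merged into 119215 regions. A region was given to the gene whose protein-coding transcription start was nearest to its midpoint, and 48 regions fell to the 9 keratins, 37 to the luminal and 11 to the basal genes. The nearest start names a region and does not show which gene it controls. Strength was taken as fold enrichment, the reads at the summit over the local background, and expressed as the percentile of the region's strongest row among all rows of its own list. Because a list pools many cells, a region open in fewer cells and a region less open in each cell cannot be told apart.

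The Dll1+ list held 132872 rows and the Dll1- list 148923. Any position was expected to hold 3.74 reads in Dll1+ data and 7.20 in Dll1- data, the genome-wide background, and the median summit held 43 and 61 reads, so the Dll1- list was the deeper. At the genome-wide background no listed summit had fewer than 9 reads in the Dll1+ list or 14 in the Dll1- list. The promoters of all 8 epithelial markers examined, among them Epcam and Cdh1, were in both lists. Of markers of other cells, 1 of 8 leukocyte promoters (Cd14), 1 of 6 endothelial (Kdr) and 1 of 8 fibroblast promoters (Pdgfra) were in both lists, and the fibroblast promoters of Pdgfrb and Col1a2 were in the Dll1- list only. Over all 21840 protein-coding genes 59.7% had a promoter region in both lists and 694 had one in the Dll1- list only. The defining markers Ptprc, Pecam1 and Col1a1 had no promoter region in either list. The part of other cells in the keratin values was not tested.

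A promoter entry was matched in the RefSeq promoter table (GRCm38) for 5 of the 9 genes, and 4 are printed because they set 3 luminal promoters that were open in both lists beside the promoter of Krt5, which was in neither. Each runs 5′ to 3′ on the gene's strand and ends before the transcription start, and capitals mark 6 motifs, each searched on both strands: the GC box (GGGCGG), AP-2 (GCCNNNGGC), AP-1 (TGANTCA), GRHL (AACNNGTT), TEAD (GGAATG) and the TATA box (TATAAA).
Krt7, chr15:101412153-101412401, plus strand: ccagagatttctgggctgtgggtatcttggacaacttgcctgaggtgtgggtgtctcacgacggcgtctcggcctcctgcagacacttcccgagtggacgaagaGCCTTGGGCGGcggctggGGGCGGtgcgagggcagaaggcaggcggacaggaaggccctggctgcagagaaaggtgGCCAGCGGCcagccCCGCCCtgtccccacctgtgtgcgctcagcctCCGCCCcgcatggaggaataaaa
Krt8, chr15:102004483-102004592, minus strand: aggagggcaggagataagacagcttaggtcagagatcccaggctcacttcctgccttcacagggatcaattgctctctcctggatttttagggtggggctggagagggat
Krt18, chr15:102027966-102028179, plus strand: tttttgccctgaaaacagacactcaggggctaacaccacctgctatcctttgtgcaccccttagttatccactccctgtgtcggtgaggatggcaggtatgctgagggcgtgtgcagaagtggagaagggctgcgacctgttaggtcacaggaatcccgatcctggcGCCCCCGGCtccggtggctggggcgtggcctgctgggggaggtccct
Krt5, chr15:101712906-101713155, minus strand: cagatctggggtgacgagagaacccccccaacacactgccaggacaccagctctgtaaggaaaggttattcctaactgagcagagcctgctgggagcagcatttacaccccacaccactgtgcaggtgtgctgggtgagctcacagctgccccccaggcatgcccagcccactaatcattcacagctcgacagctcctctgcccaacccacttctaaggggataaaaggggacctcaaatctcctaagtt

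The Krt7 stretch of 249 bases held 16 CpG dinucleotides and a GC content of 65.9%, with GC boxes and AP-2 letters that overlap each other near its middle. The Krt18 stretch of 214 bases held 8 CpG and AP-2 letters, the Krt8 stretch of 110 bases held 0 CpG and none of the 6 motifs, and the Krt5 stretch of 250 bases held 2 CpG. The RefSeq start of Krt8 lies 140 bp inside the GENCODE transcript and that of Krt18 36 bp inside, and the bases between the starts are not printed. The window of 201 bases at the Krt8 promoter summit, which lies downstream of the GENCODE start and outside the printed stretch, held TATA box letters. The median over 32851 promoters of 250 bases was 6 CpG and 52.4% GC. Of those promoters, 32.7% held a GC box, 13.7% AP-2, 12.6% TEAD, 12.4% a TATA box, 6.75% AP-1 and 3.64% GRHL. The Krt5 stretch matched the p63 consensus, as did 1.63% of all promoters, and none of the letters marked in capitals. Such a match is a run of letters and was not read as a binding site. The RefSeq entry of Krt14 starts inside the GENCODE transcript and is not printed.

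The promoter of every luminal keratin was open in both lists, and most basal keratin promoters were in neither. A promoter was the stretch from 1000 bp upstream to 100 bp downstream of the start. By this rule Krt7, Krt8, Krt18 and Krt19 (4 of 4) had a promoter region in both lists, as did 59.7% of the 21840 protein-coding genes. Of the basal genes only Krt17 (1 of 5) had a promoter region in both lists, Krt15 had one in the Dll1- list only, and Krt5, Krt14 and Krt6a (3 of 5) had one in neither, as did 36.5% of protein-coding genes. Basal genes other than keratins did not follow these 3: of 8 such genes, the promoters of 6, among them the smooth muscle genes Acta2, Myh11 and Cnn1, were in both lists, and those of Trp63 and Mylk in neither. All 8 luminal genes other than keratins, among them Elf5, Gata3 and Foxa1, had promoter regions in both lists.

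**Figure D1:**
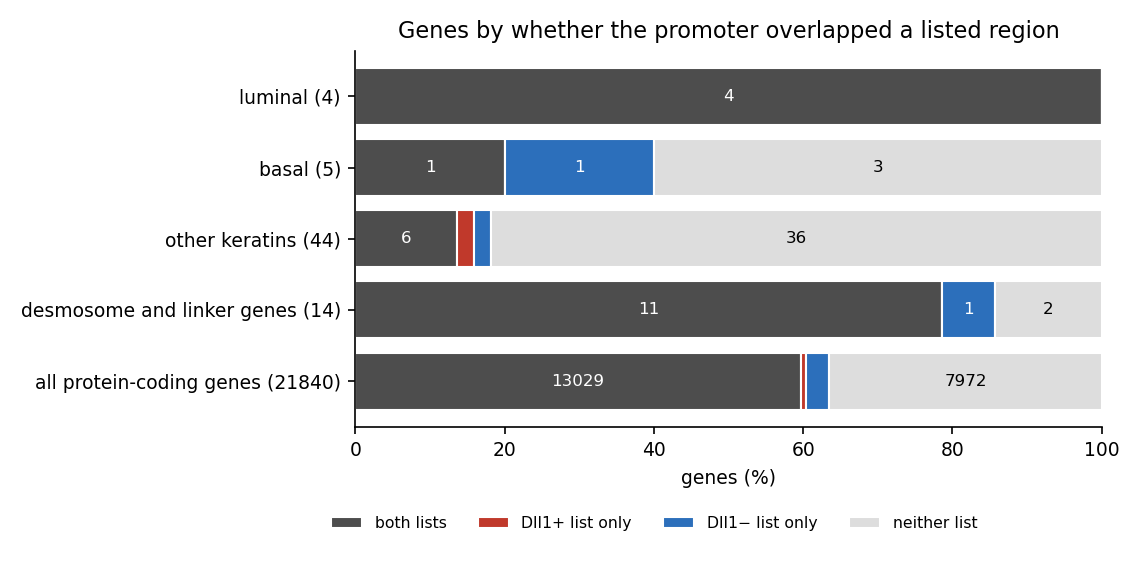
Share of genes (x axis, %) by whether the promoter overlapped a region of both lists, of 1 list or of neither, for the luminal keratins, the basal keratins, the other keratins, desmosome and linker genes and all protein-coding genes, with the number of genes in brackets and in the bars. The 4 luminal keratins were all in both lists, and 3 of the 5 basal keratins were in neither.

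The luminal promoters ranged widely in summit reads. Intervals on reads are exact Poisson 95% intervals, which cover counting error only, since without molecular identifiers several reads can stem from 1 molecule. The Krt8 promoter region (chr15:102004181-102004610) held 265 reads in Dll1+ (234.1 to 298.9) and 410 in Dll1- data (371.3 to 451.7), the most of any keratin promoter in either list. The Krt18 promoter region (chr15:102027982-102028355) held 130 (108.6 to 154.4) and 176 reads (151.0 to 204.0). The Krt7 promoter region (chr15:101411796-101412611) held 98 (79.6 to 119.4) and 183 reads (157.4 to 211.5). The intervals of Krt18 and Krt7 overlapped in both lists, so their order is not set by these counts.

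The Krt19 promoter region (chr11:100145853-100146364) held 30 reads in Dll1+ (20.2 to 42.8) and 54 in Dll1- data (40.6 to 70.5), below the other luminal promoters in both. The Krt17 promoter region (chr11:100260837-100261539), which was the basal promoter region found in both lists, held 15 (8.39 to 24.7) and 25 reads (16.2 to 36.9). Its interval overlapped that of Krt19 in the Dll1+ list and lay below it in the Dll1- list. The Krt15 promoter region (chr11:100135919-100136284) was in the Dll1- list only, with 32 reads (21.9 to 45.2). At the 3 remaining basal promoters no region was listed, which at this depth means no stretch that passed the authors' caller and not an absence of reads.

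**Figure D2:**
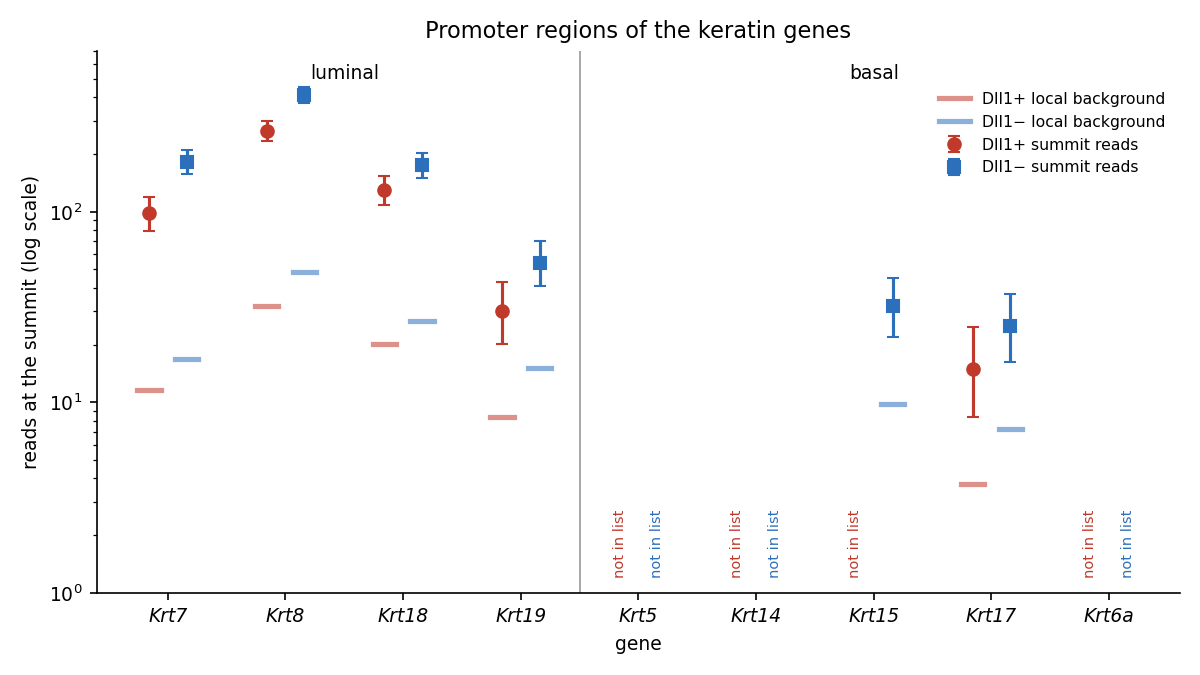
Reads at the promoter summit (y axis, log scale) of each keratin gene (x axis) in the Dll1+ list (circles) and the Dll1- list (squares), with exact Poisson 95% intervals for counting error only, and the local background as short bars. Krt8 lies highest with 265 and 410 reads, and Krt5, Krt14 and Krt6a are in neither list.

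In fold enrichment the same promoters stood less apart, because the local background differed between genes. At the Krt8 promoter the background was 31.9 reads in Dll1+ and 48.6 in Dll1- data, and the fold was 8.08 and 8.29, at percentiles 69.6 and 75.1. The Krt7 promoter, over a background of 11.6 and 16.9 reads, reached folds of 7.86 and 10.2, at percentiles 68.3 and 82.9. The Krt18 promoter was at percentiles 55.7 and 63.3 and the Krt19 promoter at 18.0 and 25.4. The Krt17 promoter was at 19.7 and 21.9, within the range of the Krt19 values, and the Krt15 promoter at 19.8 in the Dll1- list. The median of the luminal promoters was 62.0 in Dll1+ and 69.2 in Dll1- data by fold, and 83.8 and 85.8 when regions were ranked by summit reads.

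Taken as a class, the luminal keratins carried more regions for the length of DNA nearest to them, with Krt7 as an exception. The stretch nearer to their starts than to any other start came to 134.6 kb and held 2.75 regions per 10 kb, against 91.3 kb and 1.21 regions per 10 kb at the basal keratins. By gene the density was 3.84 at Krt19, 3.25 at Krt8 and 2.89 at Krt18, and 1.17 at Krt7, which lay within the basal range of 0.820 at Krt5 to 1.63 at Krt15. The other keratins together held 0.949 and the linker genes 0.707 per 10 kb, the latter with Dsc3 at 0.178 over 1625 kb. Single genes among them came close to the luminal value: Pkp3 had 2.93, Krt79 2.71 and Krt80 2.57, named because of these values. The density over all genes was not computed. Krt8 had 12 regions, Krt19 had 11, Krt18 had 10 and Krt7 had 4. Among the basal genes Krt14 had 4, Krt5, Krt15 and Krt6a had 2 each, and Krt17 had 1. Of the 37 luminal regions 24 lay between genes, 7 in introns, 5 over a promoter and 1 in a non-coding exon, and of the 11 basal regions 7, 2, 2 and 0. The regions lay within 23.4 kb of the luminal starts and within 9.32 kb of the basal starts. The 50 bases at the strongest summit occurred once in the genome for all 48 regions, so none of these summits fell on an exact copy of another keratin locus.

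Most keratin regions were in both lists. Of the luminal regions 31 of 37 were shared (83.8%, exact binomial 95% interval 68.0 to 93.8%), 4 were in the Dll1+ list only (10.8%, 3.03 to 25.4%) and 2 in the Dll1- list only (5.41%, 0.661 to 18.2%). With the starts of genes of every biotype in place of protein-coding ones, 1 luminal region was left in the Dll1+ list only and 2 in the Dll1- list only, so the order of these counts turned. Of the basal regions 7 of 11 were shared (63.6%, 30.8 to 89.1%), 0 were in the Dll1+ list only, which allows a share of up to 28.5%, and 4 were in the Dll1- list only (36.4%, 10.9 to 69.2%). Over all regions 66.4% were shared, 9.01% were in the Dll1+ list only and 24.6% in the Dll1- list only. The luminal Dll1+ share and the basal Dll1- share both had intervals that held the background. That of the luminal shared class began at 68.0%, just above the 66.4% of all regions. The interval of the luminal Dll1- share lay below its background but rests on 2 regions. At a reciprocal overlap of 50% there were 4 such regions beside 29 shared and 6 Dll1+ only. By that rule 28.05% of all regions were in the Dll1- list only. Neighbouring regions of a gene share its local background, so these intervals are narrower than the true uncertainty.

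The 10 regions found in 1 list only had low folds in that list, whereas 5 of them lay above its 50th percentile by summit reads. The same shares over all regions in 1 list only were not counted, so neither was read as a keratin trait. Krt8 had 3 in the Dll1+ list only, at 9.36, 1.25 and -2.68 kb from its start (chr15:101994989-101995248, chr15:102003011-102003448 and chr15:102006998-102007318), with 72, 78 and 51 reads at percentiles 2.89, 3.29 and 0.898 by fold and 71.2, 73.8 and 58.0 by reads. The midpoint of the region at 1.25 kb lay upstream of the start of the long non-coding gene Gm36026, in its promoter stretch. Krt7 had 1 in the Dll1+ list only at -1.48 kb (chr15:101410684-101411157), with 47 reads at percentile 31.7 by fold and 54.5 by reads. The annotated Krt7 gene begins inside this region, at 101411043, ahead of the protein-coding start used here, 101412402. Krt7 also had 1 in the Dll1- list only at 1.99 kb in its intron (chr15:101414232-101414550), with 52 reads at percentile 14.1. Krt19 had 1 in the Dll1- list only at -23.4 kb (chr11:100169413-100169691), with 82 reads at percentile 25.1 by fold and 63.02 by reads. This Krt19 region begins shortly after the shared one at -22.9 kb (chr11:100168740-100169329). The Krt8 region at 9.36 kb ends shortly before the shared one at 8.45 kb (chr15:101995382-101996690). Neither thus stands apart from shared open chromatin.

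The 4 basal regions of the Dll1- list only were spread over 3 genes. Krt14 had 2, at 4.40 and 3.94 kb from its start (chr11:100203008-100203287 and chr11:100203494-100203723), with 35 and 41 reads at percentiles 10.9 and 15.9. Krt5 had 1 at -3.14 kb (chr15:101715911-101716164), with 32 reads at percentile 37.2, and Krt15 had its promoter region. By reads the 4 basal regions lay between percentiles 19.7 and 31.8. By fold all 10 luminal and basal regions lay below the 50th percentile, a count given without its share over all regions in 1 list only. With the Dll1- reads scaled to the Dll1+ background, the counts of 4 luminal Dll1+ only, 2 luminal Dll1- only and 4 basal Dll1- only regions were the same. That scaling kept 98.4% of all Dll1- rows, so it could hardly change the counts and does not show them to be free of depth.

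**Figure D3:**
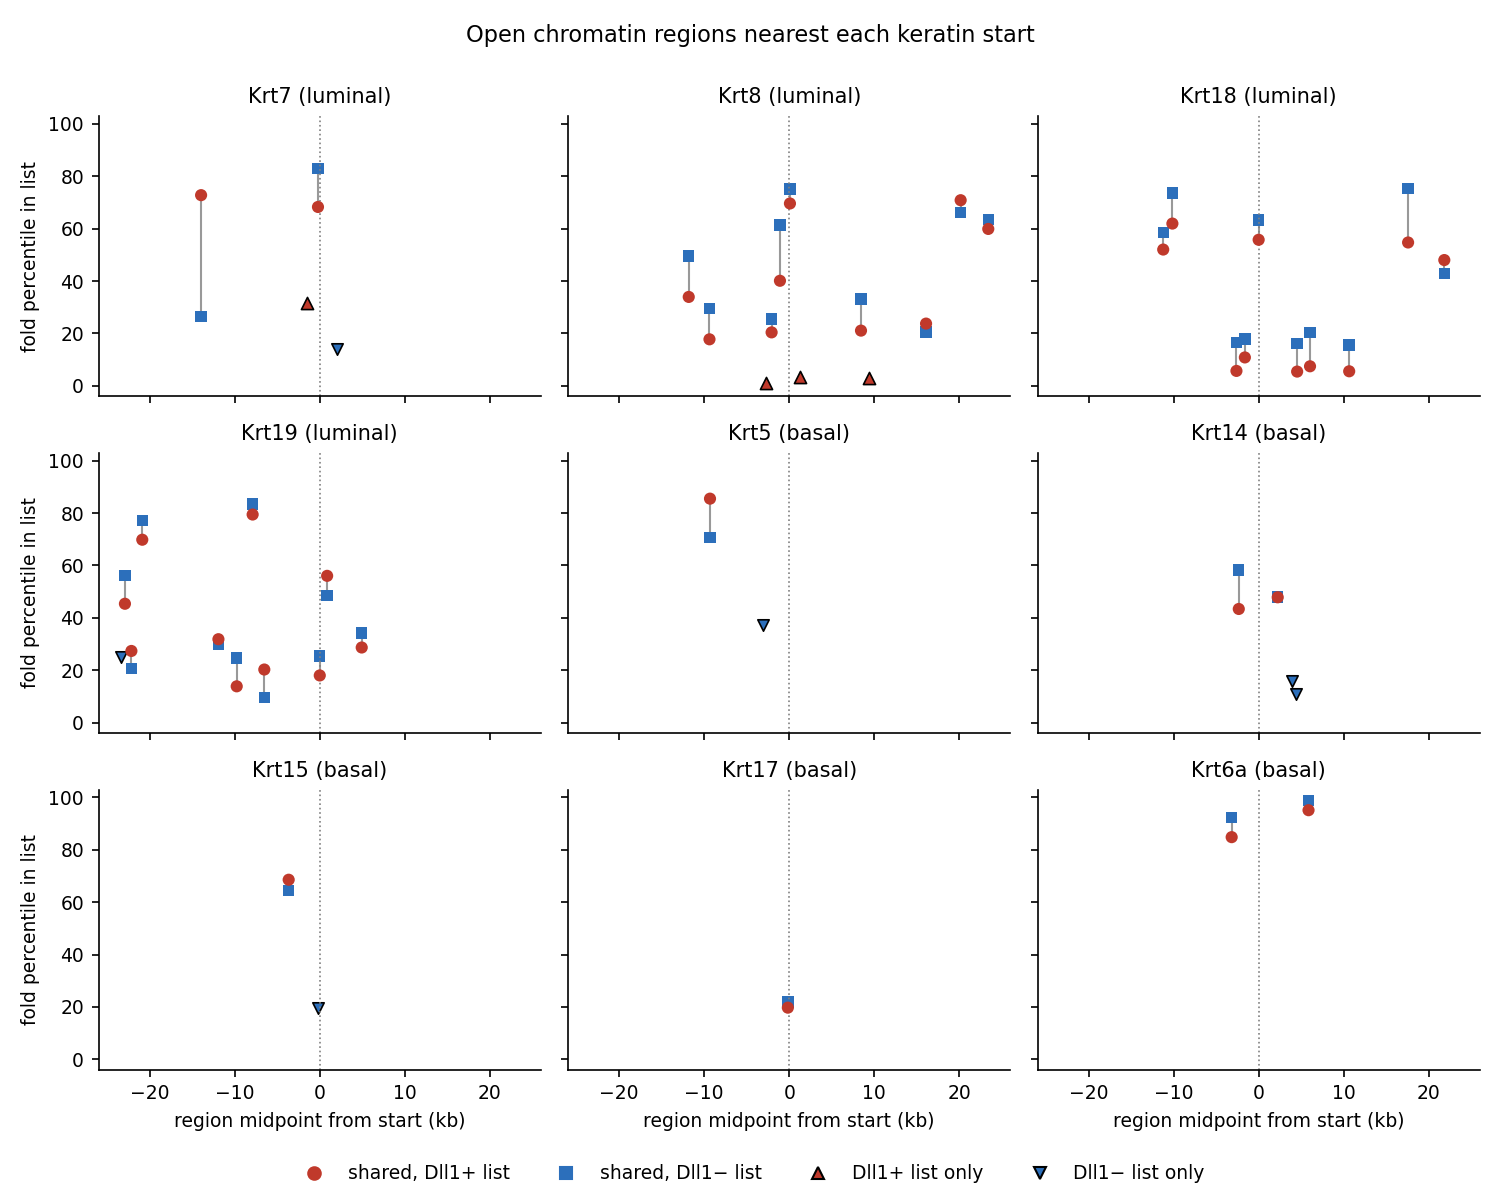
Fold percentile within the list (y axis) of every region nearest the start of each keratin gene, against the distance of its midpoint from that start (x axis, kb, positive downstream), with circles and squares joined by a line for regions in both lists and triangles for regions in 1 list. Luminal genes carry 37 regions spread to 23.4 kb, the basal genes 11, and the triangles lie below the 50th percentile by fold. How many of all regions in 1 list only lie as low was not counted.

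Of the shared luminal regions, 23 of 31 (74.2%) ranked lower in the Dll1+ list than in the Dll1- list, against 59.0% of all shared regions. The difference in percentile, Dll1+ minus Dll1-, had a median of -7.23 points over the 31 shared luminal regions (range -21.3 to 46.2). Over all shared regions the median was -1.66 points. At 10 points or more, 12 luminal regions (38.7%) ranked higher in the Dll1- list, against 24.9% of all shared regions, and 2 (6.45%) ranked higher in the Dll1+ list, against 15.1%. The 7 shared basal regions had a median of -2.21 points (range -14.9 to 14.9), with 1 past 10 points in each direction. With the Dll1- list cut by p to as many rows as the Dll1+ list the luminal median was -1.52 points, the basal median 6.21 and that of all shared regions 0.275. At equal length 18 of 31 luminal regions (58.1%) ranked lower in the Dll1+ list, against 48.3% of all shared regions. Then 3 luminal regions (9.68%) ranked 10 points or more higher in the Dll1- list, against 18.3% of all, and 7 (22.6%) ranked as much higher in the Dll1+ list, against 22.0%. Neither the luminal surplus nor the luminal deficit at 10 points or more was thus present at equal length. The luminal share that ranked lower in the Dll1+ list still lay above that of all shared regions.

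**Figure D4:**
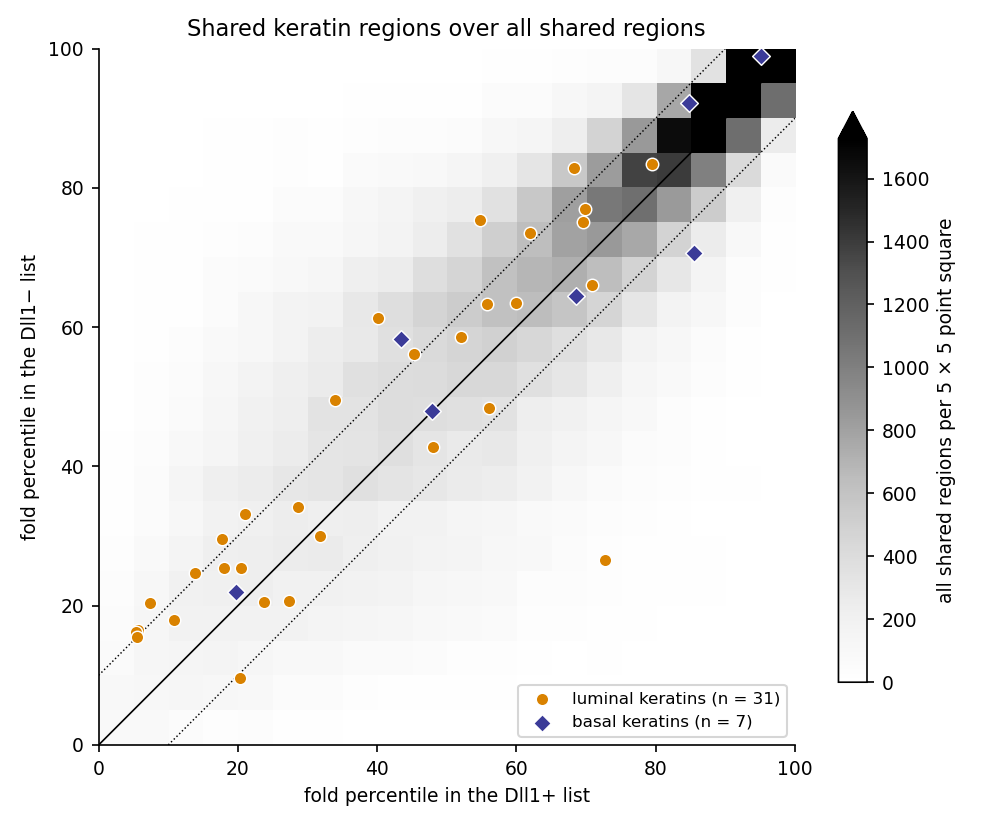
Fold percentile in the Dll1- list (y axis) against that in the Dll1+ list (x axis) for the 31 shared luminal (circles) and 7 shared basal (diamonds) keratin regions, over the number of all shared regions per square (grey); the solid line marks equal ranks and the dotted lines 10 points. Of the luminal points 23 of 31 (74.2%) lie above the solid line, against 59.0% of all shared regions, and 1 Krt7 region lies far below it.

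The size of the rank difference depended on the measure of strength. Ranked by summit reads its median was -4.04 points at luminal, -6.82 at basal and -2.53 at all shared regions, and ranked by −log10 p it was -5.23, -5.17 and -1.90. All of these were lower in the Dll1+ list, and the luminal median was the lower of the classes by fold but not by reads. The ratio of summit reads, Dll1+ over Dll1-, was divided by the median ratio of all shared regions (0.614), so that 1 is the typical shared region. Its median was 0.969 at luminal (range 0.669 to 2.41) and 0.895 at basal regions (0.704 to 1.91). Ratios of 1.5 or more occurred at 1 luminal and 1 basal region, against 12.5% of all shared regions, and the inverse at 0 of either, against 12.3%. The exact interval of the ratio lay below 1 at 6 of 31 luminal and 1 of 7 basal regions, against 15.8% of all shared regions. It lay above 1 at 1 luminal and 1 basal region, against 16.4%.

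The regions with the widest gaps were few. The Krt7 region at -13.95 kb (chr15:101398278-101398636), in an exon of the non-coding gene Gm671, held 40 reads in Dll1+ and 27 in deeper Dll1- data. Its ratio was 2.41 (1.45 to 4.09) and its percentile 72.8 against 26.5. The Krt5 region at -9.32 kb (chr15:101721870-101722562) held 81 and 69 reads, a ratio of 1.91 (1.37 to 2.68), at percentiles 85.5 and 70.6. Among the 9 genes these were the regions whose ratio exceeded 1.5, and the remaining regions of both genes differed in direction. The Krt7 promoter had a ratio of 0.873 (0.676 to 1.12), and Krt7 also had 1 region in the Dll1+ list only and 1 in the Dll1- list only. The other Krt5 region was in the Dll1- list only.

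On the other side, the Krt18 region at 17.6 kb (chr15:102045460-102046045) held 62 and 151 reads, a ratio of 0.669 (0.490 to 0.905), at percentiles 54.7 and 75.3. The Krt8 region at -1.09 kb (chr15:102005306-102005837), in an intron of Gm36026, held 144 and 286 reads, a ratio of 0.821 (0.667 to 1.01), at percentiles 40.1 and 61.4. Its interval held 1, so the drop in rank was not matched by a difference in reads beyond counting error. The Krt18 region at -10.2 kb (chr15:102017632-102018417) held 219 and 477 reads, a ratio of 0.748 (0.635 to 0.880), and was the luminal region with most reads in the Dll1- list.

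At Krt19 the strongest region was not the promoter. The region at -7.89 kb (chr11:100153772-100154240) held 159 reads in Dll1+ and 328 in Dll1- data, with folds of 10.1 and 10.5 at percentiles 79.4 and 83.5, the highest fold of any luminal region in both lists. Its ratio was 0.790 (0.650 to 0.958). The other 9 shared Krt19 regions had ratios from 0.735 to 1.26, and the interval of 1 of them, at -20.9 kb (0.770, 0.602 to 0.978), lay below 1. Summed over its 10 shared regions Krt19 held 660 reads in Dll1+ and 1225 in Dll1- data, a ratio of 0.878 (0.798 to 0.966).

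Krt6a had no promoter region in either list, and yet it had the region of highest fold among the 9 genes in both. The region at 5.86 kb (chr15:101687992-101688911), beyond the end of the gene, held 91 and 175 reads over a background close to the genome-wide one. Its folds of 16.7 and 21.2 placed it at percentiles 95.1 and 98.9, with a ratio of 0.847 (0.650 to 1.10). The region at -3.19 kb (chr15:101697077-101697909) held 79 and 183 reads, at percentiles 84.8 and 92.2, with a ratio of 0.704 (0.533 to 0.921). Both lie in the type II keratin cluster between Krt6a and its neighbours, and neither lies over a protein-coding promoter.

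The remaining basal regions were moderate. At Krt14 the intron region at 2.23 kb (chr11:100205013-100205618) held 39 and 71 reads at percentiles 47.8 and 47.9. The region at -2.35 kb (chr11:100209653-100210141) held 28 and 62 reads at percentiles 43.4 and 58.2, with a ratio of 0.736 (0.453 to 1.17). The Krt15 region at -3.65 kb (chr11:100139305-100139841), which lies between Krt15 and the end of Krt19, held 65 and 83 reads at percentiles 68.6 and 64.4, with a ratio of 1.28 (0.908 to 1.79). Intervals of all of these held 1.

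Krt8 and Krt18 lay in a stretch of raised background. The partner genes start 23.7 kb apart on chromosome 15 and point away from each other, and 10 regions lay between the starts, 9 shared and 1 in the Dll1+ list only. Over the 22 regions of both genes the local background was 2.26 to 9.23 times the genome-wide one in the Dll1+ list and 1.72 to 8.14 times in the Dll1- list. A background of 8 or more times occurred in 1.72% of all Dll1+ regions and 0.620% of all Dll1- regions. Over all luminal regions its median was 4.27 times in Dll1+ and 3.64 times in Dll1- data, against 1.55 and 1.37 times at basal regions and 1.43 and 1.24 times at all regions. Such backgrounds were not particular to the luminal keratins: the median over regions was 7.94 and 6.35 times at Krt8, 10.7 and 7.06 times at Jup, 6.06 and 5.31 times at Eppk1, 6.00 and 5.19 times at Plec and 5.60 and 4.76 times at Krt78. These other genes are named here because of these values.

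Because fold divides by that background, it ranked luminal regions low for their reads. The shared luminal regions had a median percentile of 33.9 in Dll1+ and 34.1 in Dll1- data by fold, but 67.6 and 79.4 by summit reads. The shared basal regions were at 68.6 and 64.4 by fold and at 67.6 and 57.1 by reads. All shared regions were at 67.3 and 70.7 by fold and at 61.1 and 66.6 by reads. The order of luminal and basal regions in strength thus depended on the measure. The source of the raised background was not tested.

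**Figure D5:**
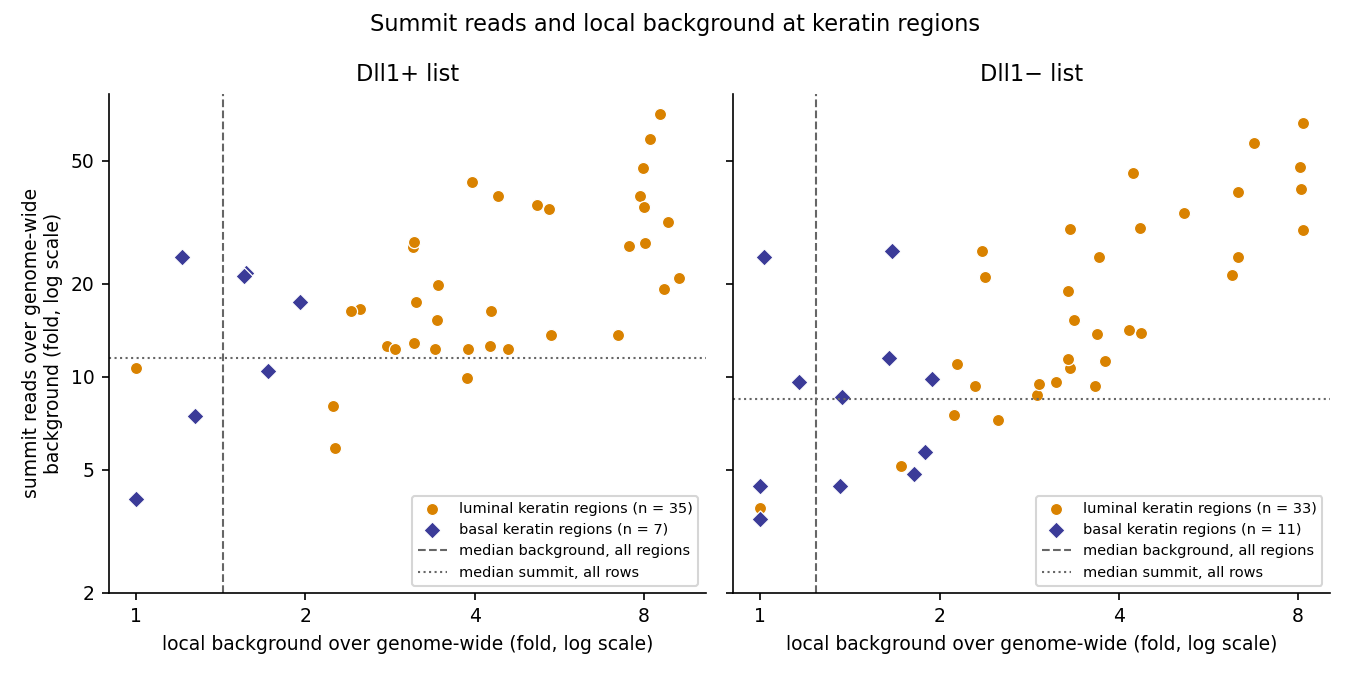
Summit reads over the genome-wide background (y axis, fold, log scale) against local background over the genome-wide one (x axis, fold, log scale) for luminal (circles) and basal (diamonds) keratin regions in each list, with the medians over all regions or rows of the list as lines. Luminal regions extend to backgrounds of 9.23 and 8.14 times, whereas the basal regions lie below 2 times in both lists.

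Summed over the shared regions, reads were scaled by 3 quantities. Relative to all shared regions the luminal sum had a ratio of 0.914 (0.872 to 0.956) and the basal sum 0.971 (0.856 to 1.10). Relative to shared promoter regions these were 0.951 (0.908 to 0.995) and 1.01 (0.890 to 1.15). Relative to the genome-wide background they were 1.08 (1.03 to 1.13) and 1.15 (1.01 to 1.30). Each scaling divides both sums by the same factor, so it moves their place relative to 1 and not their relation to each other, in which the intervals overlapped. The sums cover regions called separately in each list and were not read as a gain or loss.

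The summits of 4 shared regions away from the starts are shown: those of highest fold percentile at Krt19, Krt5 and Krt6a, and at Krt18 the one of highest percentile in the Dll1- list, which also had the lowest read ratio of the luminal regions. In the Dll1+ list the Krt18 region at -10.2 kb ranked higher (61.9 against 54.7). Each window has 201 bases on the plus strand of GRCm38, with the same motifs in capitals.
Krt19 at -7.89 kb, chr11:100153905-100154105: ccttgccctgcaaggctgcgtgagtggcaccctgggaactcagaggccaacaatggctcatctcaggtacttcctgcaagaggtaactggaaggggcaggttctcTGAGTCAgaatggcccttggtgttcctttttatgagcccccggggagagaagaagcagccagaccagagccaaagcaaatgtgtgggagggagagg
Krt18 at 17.6 kb, chr15:102045697-102045897: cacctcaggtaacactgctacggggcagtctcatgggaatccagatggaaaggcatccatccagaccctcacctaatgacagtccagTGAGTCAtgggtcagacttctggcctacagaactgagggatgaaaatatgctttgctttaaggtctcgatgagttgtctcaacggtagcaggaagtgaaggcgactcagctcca
Krt5 at -9.32 kb, chr15:101722007-101722207: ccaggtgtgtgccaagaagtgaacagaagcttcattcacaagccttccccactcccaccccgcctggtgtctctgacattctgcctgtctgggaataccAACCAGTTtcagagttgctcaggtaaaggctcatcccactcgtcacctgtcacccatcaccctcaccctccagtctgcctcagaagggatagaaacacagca
Krt6a at 5.86 kb, chr15:101688268-101688468: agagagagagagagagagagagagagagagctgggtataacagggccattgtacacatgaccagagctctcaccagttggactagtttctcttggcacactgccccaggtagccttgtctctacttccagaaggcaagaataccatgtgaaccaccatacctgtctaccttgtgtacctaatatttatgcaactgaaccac

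The Krt19 and Krt18 windows held AP-1 letters, the Krt5 window held GRHL letters, and the Krt6a window, which begins in a dinucleotide repeat, held none of the 6 motifs. Over all keratin windows AP-1 letters occurred in 10 of 37 luminal (27.0%) and 3 of 11 basal windows (27.3%), against 21.7% of all regions. TEAD letters occurred in the same numbers of windows, against 14.8% of all regions. GC boxes occurred in 6 luminal and 1 basal windows against 13.3%, AP-2 letters in 7 and 1 against 11.6%, and the RBPJ letters of the Notch pathway (GTGGGAA) in 4 and 1 against 4.30%. RUNX letters (TGTGGTT) occurred in 2 basal windows, at Krt14 and Krt15, and in 0 luminal ones, against 5.06%. GRHL letters occurred in the Krt5 window printed above and in 0 luminal windows, against 4.97%. With 11 basal windows, counts of this size were not read as a difference between the classes.

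The other 44 keratin genes, most of them hair, skin or oral keratins, mostly had no listed region at their starts. Of these, 6 had a promoter region in both lists (Krt10, Krt23, Krt79, Krt80, Krt83 and Krt86), Krt4 had one in the Dll1+ list only, Krt16 had one in the Dll1- list only and 36 had one in neither. These are 13.6% in both lists and 81.8% in neither, against 59.7% and 36.5% of protein-coding genes. In the Dll1+ list Krt4 had 21 reads at percentile 17.2, and in the Dll1- list Krt16 had 65 reads at percentile 73.8. They held 96 regions, of which 58 were shared (60.4%), 6 were in the Dll1+ list only (6.25%, against 9.01% of all regions) and 32 in the Dll1- list only (33.3%, against 24.6%), and 12 of the genes had none. Most regions lay at Krt80 (16), then at Krt42, Krt71 and Krt78 (6 each) and Krt23 (5). Krt80 had 12 shared regions and 4 in the Dll1- list only, with a summed ratio of 1.00 (0.928 to 1.08), and its promoter, with 169 and 289 reads, lay between those of Krt8 and Krt18 in both lists.

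Of 14 genes that tie keratin filaments to desmosomes and other junctions, 11 (78.6%) had a promoter region in both lists, against 59.7% of protein-coding genes, among them Dsp (desmoplakin), Jup (plakoglobin), Pkp1, Pkp2, Pkp3 and Dsg2. Dsg3, the desmosomal cadherin of basal keratinocytes, had one in the Dll1- list only, and Dsc3 and Eppk1 had one in neither. They held 190 regions, 131 shared (68.9%), 13 in the Dll1+ list only (6.84%) and 46 in the Dll1- list only (24.2%), against 66.4%, 9.01% and 24.6% of all regions. The median rank difference of the shared ones was -3.36 points, against -1.66 over all shared regions.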

How the data were processed

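The authors sorted the cells, processed all replicates of a group jointly with the ENCODE ATAC-seq pipeline and deposited 1 optimal peak list per group, 2 in all. The deposited fold enrichment is a ratio of summit reads to local background, and the deposited −log10 p-value is that of the peak caller. The deposited score was a capped value; it and the q-value column were not used. Caller, thresholds and treatment of reads that map to several places are not given in the sources used here. The submitters' processing notes name GRCm38 and mm10; of all rows, 0 ended past a chromosome of that build. The authors' test of counts per sample was not analysed here.

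Reads and background at each summit were recovered from fold and p, as (reads + 1)/(background + 1) with a Poisson tail, for all rows but 1; the method was tested on simulated data. Overlapping or touching rows were merged. Starts were those of protein-coding transcripts (GENCODE M21, 41446 starts). Motifs were searched within 100 bp of the strongest summit. Ratio intervals are conditional binomial ones at 95%. One further marker list is not reported here. The members and gene lists were chosen with earlier results of these data known. All 9 members were named, with each region in 1 list only, the promoter region and the strongest shared region; regions with the widest gaps, the Krt18 region at -10.2 kb and secondary regions of Krt19, Krt14 and Krt6a were chosen after their values were seen. Of the other keratins, the 5 with most regions and those with a promoter region in exactly 1 list were named, and the 6 in both lists were added later. Python 3.11.15, pandas 2.3.3, scipy 1.17.1 and pysam 0.24.0 were used.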

Additional observations from a re-analysis of the deposited data

How the results depend on the processing

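No paired analysis was possible because each list pools the samples of a group, and no replicate could be left out for the same reason. Of 78 recomputed values, 62 stayed within 1.5 times (counts), 10 points (ranks) or the counting interval (ratios) of the reported value and 16 moved. Within those limits the basal median rank difference still turned from -2.21 to 6.21 points with equal numbers of rows. Keeping only rows above the median fold left 10 luminal shared, 2 luminal Dll1+ only, 4 basal shared and 1 basal Dll1- only regions. Requiring that fold of regions in 1 list only, which all lay below it, left by construction 0 luminal Dll1+ only, 0 luminal Dll1- only and 0 basal Dll1- only. Starts of genes of every biotype left 1 luminal Dll1+ only region beside 2 Dll1- only, which turned their order, and a reciprocal overlap of 50% gave 4 luminal Dll1- only regions. The luminal promoter median was 78.8 (Dll1+) and 83.1 (Dll1-) ranked by −log10 p, 83.8 and 85.8 by reads, a ranking chosen after seeing the data, and 49.7 in the Dll1+ list ranked among regions. Scaled by genome-wide background the summed ratios were 1.08 (luminal) and 1.15 (basal); the cause of these shifts was not tested. Scaling Dll1- reads to the Dll1+ background kept 98.4% of Dll1- rows and changed no keratin count. With so few rows lost, that result does not show the counts to be free of depth. Depth limits weak regions, and pooling leaves the spread between tumors unmeasured.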
